A study of Mus musculus with 32 samples.

Results

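These results describe 100 cDNA clones whose deposited log ratios were negative in NIH 3T3/4E minus NIH 3T3 cells, in both polysome fractions and in both serum states. NIH 3T3 is a mouse fibroblast line. NIH 3T3/4E, named 4E in the labels, is the same line with ectopic overexpression of the translation initiation factor eIF4E. No source used here gives the promoter behind eIF4E or says whether 4E is 1 clone or a pool. The 8 groups were NIH 3T3 or 4E cells, each kept in complete growth medium (basal) or starved of serum for 16 h, and each split into a light pool (gradient fractions 4 to 6) and a heavy pool (gradient fractions 7 to 10). All arrays carried 1 common reference, poly(A) RNA from unfractionated NIH 3T3 cells in full medium.

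eIF4E binds the cap at the 5′ end of mRNAs and recruits the complex that brings in the small ribosomal subunit. The 4E-binding proteins hold eIF4E back, and transcripts with structured leaders are known to depend on its level more than others. On a sucrose gradient, mRNAs with more ribosomes travel to the heavier fractions. A clone's ratio in a fraction depends both on how much of its mRNA the cells hold and on how that mRNA is spread over the gradient. The reference was NIH 3T3 RNA, and each sample was centred on its median. A ratio near 0 therefore means a clone near the median ratio of that sample. It does not mean equal amounts in the fraction and in the unfractionated parent line.

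The clones were chosen by their measured values, as follows. Of 15247 clones, 15169 had no missing value. The columns were centred on their medians and averaged within each group, and the line difference (4E minus NIH 3T3) was taken in 4 strata, which are the basal and starved cells of the light fraction and those of the heavy fraction. A clone had to have an average line difference larger in size than its average heavy minus light difference and than its average starved minus basal difference, which 4071 clones met. These were ranked by the largest, that is the least negative, of the 4 single line differences, and the 100 lowest were taken. Of the 4071 clones 652 were negative in all 4 strata. The 100th clone had a largest single difference of -0.495 and the 101st one of -0.491, so the limit falls at no gap in the values.

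Values are log ratios taken as log2, with each sample centred on its median. No source used here says whether the sample or the reference is the numerator, so positive and negative are as coded and do not mean more or less RNA. The clones carry no gene names here, and the mouse RefSeq gene table (GRCm38.p6) held 0 of their IDs. For this reason no gene, protein or sequence is named, the fibroblast markers and eIF4E itself could not be checked, and clones are given by ID, at most 2 in each direction for a comparison.

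Each group held 4 deposited columns in 2 pairs, and within a pair the same column was never the lower one at any clone. The mean of a pair was used as 1 sample, giving 16 samples, 2 in each group. Nothing in the labels tells whether these came from separate cultures, so tests measure the spread between these samples, which may be technical. The median residual SD between samples of a group was 0.416 for the 100 clones and 0.393 for all clones. A buffer row and an Arabidopsis row had no values in NIH 3T3 starved and 4E basal samples (8 in all) but had them in the other 8. Every stratum compares a sample set on one side of this split with a set on the other, while the averages over the 4 strata are balanced over it. One sample, the second of 4E heavy starved, stood apart, with a median absolute deviation of 0.499 over all clones and a median correlation of 0.33 with the other samples. Without it 81 of the 100 were called for the line (2.35% of all clones), 29 for the fraction (16.3%) and 11 for serum (2.35%). These shares count calls in either direction. With all 16 samples they were 2.62%, 18.1% and 2.96%.

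The median ratio over the 100 clones was a little above 0 in NIH 3T3 and clearly below 0 in 4E. Their median level was 0.33 and 0.10 in the 2 NIH 3T3 heavy basal samples and 0.33 and 0.41 in the heavy starved ones. In the light fraction of NIH 3T3 it was 0.17 and 0.15 (basal) and 0.20 and 0.14 (starved). In 4E it was -0.97 and -0.77 (heavy basal), -0.75 and -0.90 (heavy starved), -1.14 and -0.84 (light basal) and -0.96 and -1.08 (light starved). All 8 medians of the 4E samples lay below all 8 of the NIH 3T3 samples, a direction that the choice of the clones fixes. Between 76 (4E heavy starved, 1st sample) and 94 (4E light basal, 1st sample) of the 100 clones were below 0 in a 4E sample, against 35 to 46 in an NIH 3T3 sample and 50% of all clones in each.

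**Figure D1:**
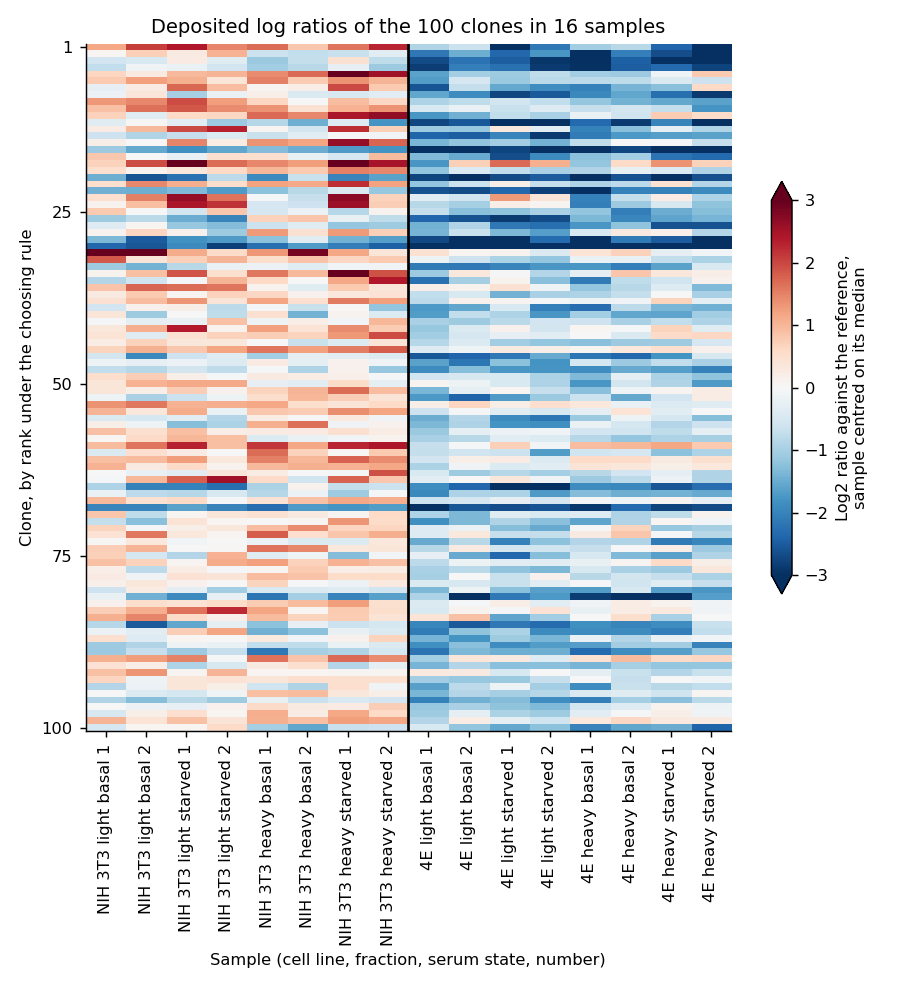
Each row is 1 of the 100 clones in the order of the choosing rule. Each column is 1 of the 16 samples (NIH 3T3 left of the black line, 4E right of it). Colours give the deposited log ratio, taken as log2 and with its sign as coded, centred on the sample's median and capped at 3 and -3. Most rows turn from red or pale in NIH 3T3 to blue in 4E, and a smaller set is blue in both lines and deeper blue in 4E.

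By the sign of the mean level in each line the clones fell into 3 kinds. For 56 clones the mean was above 0 in NIH 3T3 and below 0 in 4E, with median levels of 0.69 and -0.66. Another 36 were below 0 in both lines, with median levels of -0.56 in NIH 3T3 and -1.80 in 4E. The last 8 were above 0 in both lines, with medians of 1.205 and 0.146. The median line difference was similar in the 3 kinds, at -1.10, -1.17 and -1.06. Of all clones, 12.5% were above 0 in NIH 3T3 and below 0 in 4E. A further 35.0% were below 0 in both lines and 41.3% above 0 in both. The other 11.2% were below 0 in NIH 3T3 and above 0 in 4E, where 0 of the 100 were. The rule used the difference between the line means, so it bars this last kind and shapes the other counts. Nothing is read from these shares.

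The mean over all 16 samples, which the rule did not use, had a median of -0.26 for the 100 clones and 0.03 for all clones. It was below 0 for 64 of the 100 and for 45.9% of all clones. The clones also spread more widely in level than clones in general: in NIH 3T3 their means had an SD of 0.855 (0.554 over all clones) and ran from -2.27 to 2.14. In 4E they had an SD of 0.887 (0.570 over all clones) and ran from -3.79 to 0.47. The line means make up the line difference that chose the clones, so nothing is read from the wider spread.

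**Figure D2:**
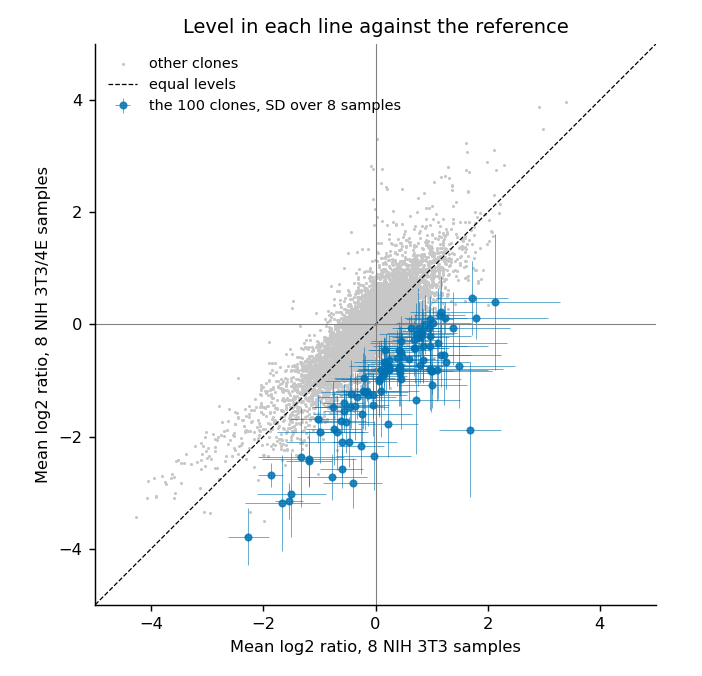
Mean log2 ratio in the 8 NIH 3T3 samples (horizontal axis) against the 8 NIH 3T3/4E samples (vertical axis) for the 100 clones (blue, bars are SD over 8 samples) and all other clones (grey); the dashed line marks equal levels. The 100 clones lie below the dashed line over the whole range of NIH 3T3 levels, from -2.27 to 2.14.

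The line difference itself chose the clones, and its values are given as a description. Averaged over the strata it ran from -3.57 to -0.62, with a median of -1.12. The medians of single strata were -1.03 in basal and -1.19 in starved cells for the heavy fraction, and -1.15 and -1.21 for the light, so the fractions and serum states had close medians. The clones were less even one by one. The gap between a clone's most and least negative stratum had a median of 0.787 and ran from 0.129 to 2.79. Heavy basal was the least negative stratum for 35 clones, light basal and light starved for 23 each and heavy starved for 19. Heavy starved was the most negative one for 32, light starved for 25, light basal for 23 and heavy basal for 20.

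Samples of a stratum did not overlap (both 4E samples below both NIH 3T3 samples) in all 4 strata for 77 clones, in 3 for 16 and in 2 or fewer for 7. Of all clones these were 0.91%, 3.26% and 95.8%. All 8 samples of 4E lay below all 8 of NIH 3T3 for 28 of the 100, and for 0.204% of all clones. At an adjusted p under 0.05 in the limma fit of all groups, 85 of the 100 clones were called negative for the line average, where 1.36% of all clones were. In single strata the calls were 5 in heavy basal (0.264% of all clones), 19 in heavy starved (0.514%), 3 in light basal (0.0791%) and 18 in light starved (0.376%). These counts rest on the contrast that chose the clones, and nothing is read from them.

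**Figure D3:**
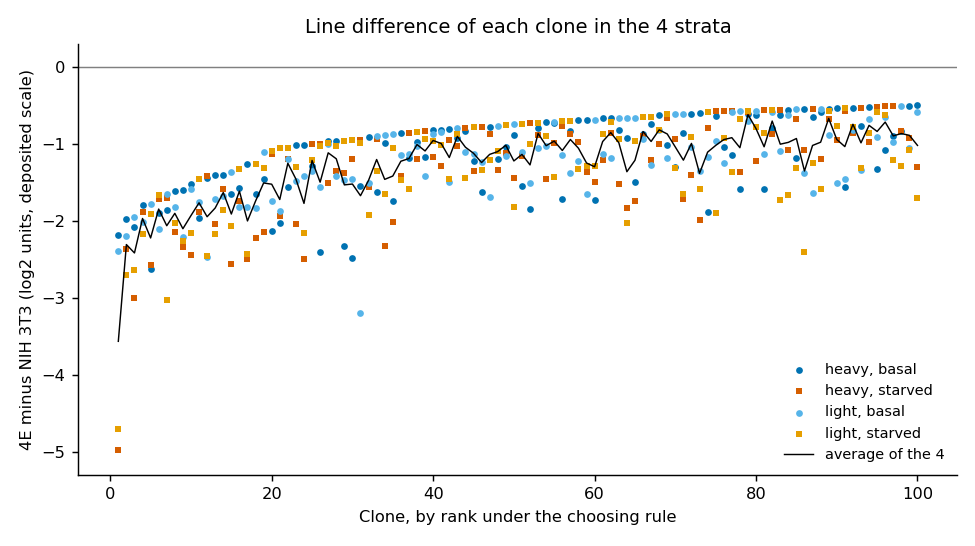
The 4E minus NIH 3T3 difference (log2 units, vertical axis) of each of the 100 clones, by rank under the choosing rule (horizontal axis), in the 4 strata (points) and on average (line). The upper edge of the points is the value the rule ranked, from -2.19 to -0.495, and the scatter below it is the unevenness between strata.

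Clone H3143B04 ranked first. In NIH 3T3 it stood at 1.68 and 0.81 (heavy basal), 1.61 and 2.28 (heavy starved), 1.15 and 2.09 (light basal) and 2.41 and 1.47 (light starved). In 4E it stood at -1.05 and -0.83 (heavy basal), -2.39 and -3.68 (heavy starved), -0.90 and -0.64 (light basal) and -3.39 and -2.14 (light starved). No 4E sample reached an NIH 3T3 sample, and the 4 starved 4E samples were the lowest. Its line difference was -2.19 in heavy basal, -2.39 in light basal, -4.98 in heavy starved and -4.71 in light starved cells, with an average of -3.57 (SE 0.27).

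Clone H3115A08 ranked second and showed another course. In NIH 3T3 it stood at -0.63 and -0.73 (heavy basal), -0.66 and -0.31 (heavy starved), 0.07 and 0.72 (light basal) and 0.26 and 1.03 (light starved). In 4E it stood at -3.25 and -2.05 (heavy basal), -2.66 and -3.05 (heavy starved), -2.14 and -1.45 (light basal) and -2.36 and -1.74 (light starved). The lines did not overlap here either. Its 4 line differences were close to each other, from -1.97 in heavy basal to -2.70 in light starved cells, with an average of -2.31 (SE 0.22). Within each line, its mean was lower in the heavy than in the light fraction, and in NIH 3T3 all light samples were above 0.

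To read the line difference in samples that had no part in the choice, the rule was applied to the 1st sample of each group alone, and its 100 lowest clones were read in a fit of the 8 second samples. Of these 100 clones 99 were negative in the second samples, where 48.0% of all clones were. Their median line difference was -1.29 in the samples that chose them and -0.88 in those that did not, against a median of 0.02 for all clones. All 4 strata were negative in the second samples for 68 of the 100, and for 7.21% of all clones. At an adjusted p under 0.05 (limma, Benjamini-Hochberg over all clones) 6 of the 100 were called negative, where 0.0396% of all clones were, which is all 6 of the calls. At an unadjusted p under 0.05, 70 were negative, against 3.58% of all clones.

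The reverse choice gave a weaker return of signs and more calls. Of the 100 clones chosen in the second samples 88 were negative in the first samples, where 49.4% of all clones were, and their median went from -1.07 to -0.85. All 4 strata were negative for 55, and for 9.14% of all clones. Here 21 of the 100 were called negative, where 0.231% of all clones were (35 clones). Of the 100 clones described here, 64 were in the list of the first samples and 45 in that of the second. In both directions the median line difference was smaller in size where it was not used to choose. The samples that chose and those that were read share the groups and the split by control rows, and they may share cultures.

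**Figure D4:**
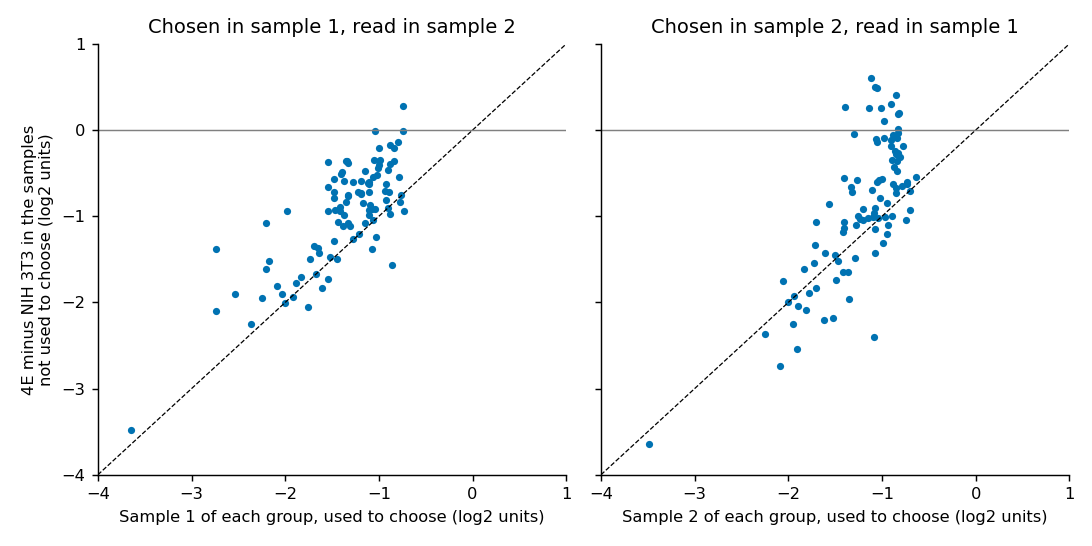
The average 4E minus NIH 3T3 difference of 100 clones in the samples that chose them (horizontal axis, log2 units) and in the samples that did not (vertical axis, log2 units), for a choice in the 1st samples (left) and in the 2nd (right); the dashed line marks equal values. Of the points, 99 (left) and 88 (right) lie below 0.

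The fraction behaviour of the 100 clones was a positive heavy minus light difference more often than a negative one. The rule limits the size of this difference to below that of the line difference but does not use its sign. It was positive for 63 of the 100, with a median of 0.20, and for 50.8% of all clones, with a median of 0.01. By state, it was positive for 64 in 4E basal (50.9% of all clones) and 62 in 4E starved cells (49.8%). In NIH 3T3 it was positive for 58 in basal (50.6%) and 65 in starved cells (52.4%). It was positive in all 4 states for 45 clones and negative in all 4 for 19, against 19.3% and 17.2% of all clones. Within the 8 samples where the control rows held values it was positive for 61 (50.2% of all clones). Within the other 8 it was positive for 65 (52.1%), and 84 of the 100 had the same sign on both sides (65.7% of all clones).

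At an adjusted p under 0.05 in the limma fit, 23 of the 100 were called with a positive fraction difference, where 9.30% of all clones were, and 9 with a negative one, where 8.78% were. The rule used the size of this contrast, so nothing is read from the counts. For comparison, the 100 clones that the mirrored rule takes as steadily positive in 4E minus NIH 3T3 had a positive fraction difference at 34, a median of -0.18, and 6 positive and 17 negative calls. The difference between the lists was not tested, and both come from the same 16 samples.

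Clone H3087E01 had the largest positive fraction difference among the clones called. In the light fraction it stood at 0.68 and -0.37 (NIH 3T3 basal), 0.60 and 0.63 (NIH 3T3 starved), -1.74 and -1.44 (4E basal) and -0.73 and -0.96 (4E starved). In the heavy fraction it stood at 1.69 and 1.43, 2.45 and 2.65, -0.19 and -0.61, and 0.76 and 0.56 in the same order. Within each state both heavy samples lay above both light samples, while over all 16 samples the fractions overlapped because of the line difference. The heavy minus light difference was 1.40 and 1.94 in basal and starved NIH 3T3 and 1.19 and 1.51 in basal and starved 4E cells, on average 1.51 (SE 0.18).

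Clone H3099G03 had the largest negative one. In the light fraction it stood at 0.85 and 1.75 (NIH 3T3 basal), 1.66 and 1.61 (NIH 3T3 starved), 0.20 and 0.12 (4E basal) and 0.47 and -0.13 (4E starved). In the heavy fraction it stood at 0.10 and -0.37, 0.79 and 0.35, -1.17 and -0.83, and -0.39 and -1.32 in the same order. Both heavy samples lay below both light samples in each state. The average difference was -1.17 (SE 0.20), in a clone whose line difference averaged -1.22.

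The serum behaviour was mixed. Starved minus basal, limited in size by the rule but not in sign, was positive for 64 of the 100, with a median of 0.09, and for 52.3% of all clones, with a median of 0.02. It was positive for 65 in the heavy fraction of NIH 3T3, against 53% of all clones. In each other state it was positive for only 54, against 51% (NIH 3T3 light), 50.5% (4E heavy) and 52.1% (4E light) of all clones. It was positive in all 4 states for 26 clones and negative in all 4 for 15, against 11.4% and 8.36% of all clones. By limma 8 of the 100 were called positive, where 1.75% of all clones were, and 5 negative, where 1.21% were, and again nothing is read from these counts. With quantile normalization the 12 calls were 6 positive and 6 negative, where 2.67% of all clones were called in either direction. Each single starved minus basal difference crosses the split by control rows, and the part of the split in it was not tested.

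Clone H3010E09 had the largest positive serum difference among the clones called. Its basal samples stood at -0.50 and -0.62 (NIH 3T3 heavy), 0.10 and 0.91 (NIH 3T3 light), -2.06 and -1.08 (4E heavy) and -0.84 and -0.99 (4E light). Its starved samples stood at 2.57 and 0.74, 2.45 and 2.16, -0.47 and -1.21, and 0.19 and 0.09 in the same order. Starved samples lay above basal samples in each of these but the 4E heavy fraction, where they overlapped, and the SD over the 8 NIH 3T3 samples was 1.29. The average difference was 1.45 (SE 0.26), made of 2.21 and 1.79 in NIH 3T3 (heavy and light) and 0.72 and 1.05 in 4E.

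Clone H3053E08 had the largest negative one. Its basal samples stood at 1.31 and 2.88 (NIH 3T3 heavy), 3.78 and 3.15 (NIH 3T3 light), 0.40 and 0.69 (4E heavy) and 0.46 and 0.07 (4E light). Its starved samples stood at 1.16 and 0.37, 1.11 and 0.56, -0.28 and -0.08, and 0.10 and -0.42 in the same order. Starved samples lay below basal samples in each of these but the 4E light fraction, where they overlapped. The serum difference was larger in size in both NIH 3T3 fractions than in either 4E fraction. The basal samples of NIH 3T3 light were the highest, and the line difference of the clone ran from -3.20 in light basal to -0.94 in heavy starved cells. The average serum difference was -1.28 (SE 0.23).

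Taking both together by sign, 44 clones were positive for fraction and serum, 19 positive for fraction and negative for serum, 20 the reverse, and 17 negative for both. Of all clones these were 29.6%, 21.2%, 22.7% and 26.5%. By calls in either direction, 25 of the 100 were called for the fraction and not serum, 6 for serum and not the fraction, 7 for both and 62 for neither. Of all clones these were 16.6%, 1.44%, 1.52% and 80.5%. Of the 62 clones called for neither, 47 were called for the line average, a combination found in 1.34% of all clones. These counts rest on contrasts that the rule used, and nothing is read from them.

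**Figure D5:**
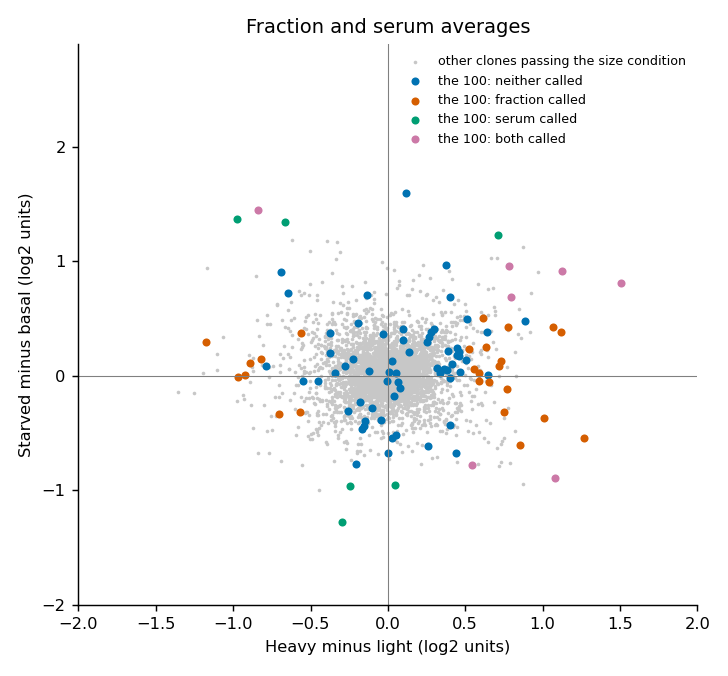
Average heavy minus light difference (horizontal axis) against average starved minus basal difference (vertical axis), both in log2 units, for the 100 clones (coloured by the limma calls) and the other clones whose line difference exceeds both in size (grey). The 100 clones lie mostly right of the vertical line (63 clones) and above the horizontal one (64 clones).

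The fraction by serum term asks whether the heavy minus light difference changes with starvation, averaged over the lines, and the rule used neither its size nor its sign. No clone was called for it by limma, of the 100 or of all clones (0% called). At an unadjusted p under 0.05 there were 2 of the 100, and 2.38% of all clones. The term was positive for 66 of the 100, with a median of 0.09, and for 51.7% of all clones, with a median of 0.02, and its median SE for the 100 clones was 0.41. Clone H3004D09 had the smallest p, with a value of 0.96 (SE 0.39, adjusted p = 0.9999 by limma).

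The terms that let the line difference vary are limited by the rule, which asks for a low value in each stratum. For the line by fraction term 0 of the 100 and 0% of all clones were called by limma, with 4 of the 100 and 2.56% of all clones at an unadjusted p under 0.05. Its median over the 100 was 0.01, and clone H3123C01 had the smallest p, with a value of 1.08 (SE 0.45). For the line by serum term 0 were called positive, where 2.65% of all clones were, and 1 was called negative, where 2.03% were. The clone called was H3143B04, at -2.56 (SE 0.54), for the larger line difference in starved cells given above. This term coincides with the split by control rows, so the effect of starvation and that of the split cannot be told apart. Averaged over both fractions, the line difference within the side that holds control values (4E starved minus NIH 3T3 basal) had a median of -0.996 over the 100 clones. Within the other side (4E basal minus NIH 3T3 starved) the median was -1.196. All 100 were negative on both sides, which the rule's limit on the serum difference fixes.

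The clone IDs are read as a plate number and a well, and the 100 clones came from 75 of the 159 plates. Of these plates 55 gave 1 clone, 15 gave 2 and 5 gave 3, which was the most. The clones filled 64 different wells. Plates 1 to 40 and 121 to 159 held 66 of the 100, against 49.6% of all clones and 57 of the 100 clones of the mirrored list. Counted in blocks of up to 20 plates, those plates are the ones with the highest counts (19, 17, 13 and 17). The cut thus follows the counts. The median SD of a clone over the 16 samples was 0.509 on those plates and 0.466 on the others. Among the others, plates 101 to 120 had a median SD of 0.519 and held 7 of the 100. The part of the SD in the count was not tested.

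The 2 columns of a sample held equal values (within 1e-06) in some samples. The median number of samples with equal columns was 1 for the 100 clones, 1 for the mirrored list and 2 for all clones. No such sample was found for 43 of the 100, for 37 of the mirrored list and for 19.9% of all clones. What equal columns stand for is not given in the sources used here.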

How the data were processed

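The authors deposited 1 log ratio per clone and column, from 2-colour hybridisation of polysome RNA against the NIH 3T3 reference per the labels, taken here as log2 (largest absolute value 11.3). The sources used here do not give log base, direction, background correction or normalization; a natural log is possible. The 2 columns of a pair were averaged, samples centred on their medians, and 8 group means fitted over 16 samples with limma 3.58.1 (R 4.3.3), with Benjamini-Hochberg adjustment over 15169 clones and a threshold of 0.05. The fit had 8 residual degrees of freedom, and the additive fit of 8 held-out samples 4. The fit of 8 group means was tested on simulated data with normal noise that was independent between samples. The additive fit was not tested in this way. The clones, lists and tests were chosen with earlier results of these data known. Named clones are the 2 lowest by the rule and, for each other term, the largest positive and negative among clones called, or the smallest p where none was called. Gene lists and cell type markers could not be used without gene names. Alternatives changed the columns, centring, normalization, replicate block, model, rule and samples. The number of arrays limits the precision.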

Additional observations from a re-analysis of the deposited data

Results flagged for a closer look

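Clone H3143B04 was the 1 clone of the 100 called for the line by serum term, a term for which limma called 4.68% of all clones in either direction. Its value was -2.56 (SE 0.54), and -2.88 to -2.23 with 1 sample left out at a time. The term is built from the single line differences that the rule ranked, so the value is a description and nothing is read from the count. Starvation cannot be told apart here from the sample split that the control rows show.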

How the results depend on the processing

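Leaving out 1 sample at a time gave 74 to 85 clones called for the line average (1.80 to 2.98% of all clones). The 74 came without the 1st sample of 4E heavy basal and, separately, without the 2nd of 4E light starved. Leaving out 1 sample gave 22 to 33 for the fraction (14.5 to 19.6%) and 9 to 16 for serum (1.52 to 4.22%). It gave 1 to 2 for the line by serum term (2 without NIH 3T3 heavy basal, 1st sample; 2.89 to 5.47% of all clones), 0 for fraction by serum (0 to 0.0396%) and 0 for line by fraction (0 to 0.0198%). Shares of all clones here count calls in either direction. With all 16 samples they were 2.62% for the line, 18.1% for the fraction and 2.96% for serum. With 1 sample left out the rule took 83 to 92 of the same clones. It took 84 with quantile normalization, 76 without the condition on fraction and serum, and 70 when ranked by the average. Counting all 32 columns as samples, which treats the pairs as independent, gave 100 clones for the line (23.4% of all clones), 63 for the fraction (40.3%), 46 for serum (25.1%), 2 for fraction by serum (1.52%), 23 for line by serum (32.4%) and 3 for line by fraction (1.62%). Of the lists chosen in 8 samples, the held-out calls were 6 when title numbers 1 and 2 chose and 21 when 3 and 4 chose. Sample numbers were not taken to pair the groups. Over 28 pairs of groups, deviations of same-numbered samples correlated at -0.33 to 0.36 (median -0.09), above 0.1 in 9. The sign of such a correlation depends on the numbering within a group, so values below 0 count as much as those above. The limma fits treat all samples as independent, and whether samples of different groups are independent was not tested. The values of the named clones kept their sign under each alternative run, and only the 32-column setting turned any of them (H3004D09 and H3123C01) to called. With the replicate block the counts were 81 for the line (2.16% of all clones), 29 for the fraction (16.7%) and 12 for serum (2.40%). With 2 samples per group, interaction terms have the widest errors.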
